A study of Homo sapiens with 9 samples.

Results

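The YAP pathway was followed through 10 genes, chosen by name with earlier results of these data known. They were the coactivator genes YAP1 and WWTR1, the DNA-binding partner TEAD1, and the target or feedback genes CCN1, FJX1, AMOTL2, AJUBA, LATS2, PTPN14 and NUAK2. They are 10 of the 37351 genes of the deposited count table, and all 10 had enough reads to be among the 19250 genes tested. RNA was sequenced from LNCaP, a human prostate cancer cell line that expresses the androgen receptor, in 9 libraries that all belong by their labels to treatment with recombinant NRG1 at 15 ng/mL. Every culture had first been starved in medium without serum and calcium, and 3 libraries each were made at 0, 12 and 24 h. NRG1 is a ligand of HER3, which signals together with HER2, and the study approached YAP through gene set analysis, whereas each gene is tested on its own here. No untreated library at 12 or 24 h was analysed here, so the effects of NRG1 and of time in this medium cannot be told apart, and LNCaP is 1 cell line.

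In the Hippo pathway, the kinases MST1 and MST2 activate LATS1 and LATS2, which phosphorylate YAP and its relative TAZ (the product of WWTR1) and hold them out of the nucleus. Unphosphorylated YAP and TAZ enter the nucleus, bind TEAD transcription factors at DNA and raise genes of growth, matrix and cell shape, among them CCN1 and CCN2. Several targets act back on the pathway, such as LATS2, AMOTL2, AJUBA and NUAK2, and the pathway acts mostly on the YAP protein, which RNA levels do not measure.

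Promoter sequences were read for the 10 genes from the RefSeq table of GRCh38.p14, which holds 250 bases before to 50 bases after each start. Of the 10 genes, 8 matched, with 11 promoters, while TEAD1 and CCN1 had no entry. The 4 sequences below belong to genes that differed from 0 h in the tests described further on, and they show which of these genes carry the letters of the TEAD motif near the start. Capitals mark the TEAD motif, GGAATG or its reverse complement CATTCC, and each sequence runs 5′ to 3′ on the strand of its gene. The sequences lie at chr11:35618210-35618509 on the plus strand (FJX1) and, on the minus strand, at chr3:134374398-134374697 (AMOTL2, the second of its 2 starts in the table), chr1:205321696-205321995 (NUAK2) and chr1:214551553-214551852 (PTPN14).
FJX1: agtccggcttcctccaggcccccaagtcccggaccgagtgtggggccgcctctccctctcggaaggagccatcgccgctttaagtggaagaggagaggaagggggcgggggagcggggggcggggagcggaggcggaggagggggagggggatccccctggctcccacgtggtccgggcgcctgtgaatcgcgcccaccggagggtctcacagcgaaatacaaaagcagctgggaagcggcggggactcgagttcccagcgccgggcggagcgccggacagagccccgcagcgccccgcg
AMOTL2: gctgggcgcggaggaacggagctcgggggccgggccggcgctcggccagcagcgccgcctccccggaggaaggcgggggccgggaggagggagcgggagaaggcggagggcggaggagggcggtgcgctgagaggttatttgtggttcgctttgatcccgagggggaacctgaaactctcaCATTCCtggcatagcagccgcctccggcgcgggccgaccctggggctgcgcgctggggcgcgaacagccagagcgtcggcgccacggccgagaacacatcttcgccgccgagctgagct
NUAK2: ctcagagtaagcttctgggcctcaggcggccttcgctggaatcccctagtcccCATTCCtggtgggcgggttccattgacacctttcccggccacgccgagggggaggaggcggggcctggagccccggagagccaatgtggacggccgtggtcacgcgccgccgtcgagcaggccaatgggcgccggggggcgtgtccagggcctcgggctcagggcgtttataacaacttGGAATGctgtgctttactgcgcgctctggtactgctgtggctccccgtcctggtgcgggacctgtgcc
PTPN14: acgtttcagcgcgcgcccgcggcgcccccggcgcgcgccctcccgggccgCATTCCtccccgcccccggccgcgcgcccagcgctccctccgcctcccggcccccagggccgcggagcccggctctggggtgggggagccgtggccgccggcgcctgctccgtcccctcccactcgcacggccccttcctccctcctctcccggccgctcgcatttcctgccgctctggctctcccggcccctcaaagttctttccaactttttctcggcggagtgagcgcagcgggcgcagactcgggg

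The TEAD motif was found in at least 1 promoter of 6 of the 8 genes, namely YAP1, AMOTL2, AJUBA, LATS2, PTPN14 and NUAK2, and in 6 of their 11 promoters. Among all 35116 promoters of the table, 14.0% hold it on either strand. With position 1 at the first transcribed base, its first base lay at -69 in the AMOTL2 promoter, at -197 and -18 in that of NUAK2 and at -200 in that of PTPN14. The promoter of FJX1 held no such match, nor did those of WWTR1, the first AMOTL2 start and the first AJUBA start. Of 4 other motifs searched on both strands, AP-1 (TGANTCA, in 7.71% of all promoters), ETS (CCGGAAGT, 4.14%) and the CArG box of SRF (1.29%) were in none of the 11 promoters. The EGR motif (GTGGGCG, 9.52%) was in those of FJX1, at -59 on the minus strand, and NUAK2, at -189. None of the matches overlapped another searched motif. A match describes the letters of these windows and does not show that a factor binds there.

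Levels are given as CPM, the counts of a gene scaled to a common library total, on library sizes adjusted by the trimmed mean of M values (TMM). The 9 libraries held between 47016302 and 60985825 counts, replicate libraries correlated at r of 0.991 to 0.993, and no pair of replicates was as alike as sampling noise alone would make it. The labels call the replicates biological, and per the study's methods the cells were plated in triplicate. Neither shows that the replicates came from separate passages of the cells, so p-values measure the spread between these cultures. All 8 LNCaP markers were present, the lowest at a mean of 40.4 CPM, and their summed level was 4359 to 4395 CPM at 0 h, 4273 to 4298 at 12 h and from 3977 to 4114 at 24 h. Single markers moved more than the sum. In the tests described further on, 2 were higher and 5 lower at 12 h, and 1 higher and 6 lower at 24 h. These are 87.5% at each time, beside 18.7% and 21.1% of all genes. Their log2 fold changes at 24 h ran from -1.41 to 0.25. The leukocyte markers summed to at most 0.315 CPM and the basal prostate markers to at most 0.325 CPM in any library. The fibroblast list summed to between 24.6 and 28.8 CPM, mostly COL1A1, with COL1A2 at 1 read and DCN at 11 reads in all 9 libraries together. Within it COL3A1 was higher at 12 and 24 h, with means of 0.567, 1.13 and 1.43 CPM at 0, 12 and 24 h, and LUM at 24 h, with 1.03, 1.42 and 1.52 CPM. The endothelial list, with PECAM1 at 5 reads in all, was mostly VWF and summed to 12.8 to 13.7 CPM at 0 h, 8.38 to 9.39 at 12 h and from 6.90 to 7.95 at 24 h. The part of these markers in the results was not tested.

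Compared per length of exon, YAP1 was the most abundant of the 10 genes, at a mean of 24.6 CPM per kilobase over the 9 libraries, and WWTR1 the least, at 0.0431. AJUBA, a LIM domain protein of cell junctions, followed YAP1 at 24.0 CPM per kilobase, and the ranges of these neighbours overlapped. TEAD1 came next at 4.5 CPM per kilobase, above the range of every gene below it. CCN1 (2.94), NUAK2 (2.41), LATS2 (2.18), AMOTL2 (1.91), FJX1 (1.59) and PTPN14 (1.44) formed a chain in which each overlapped the next over the 9 libraries. The range of FJX1 was the widest of that chain, from its 0 h libraries to its 24 h libraries.

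**Figure D1:**
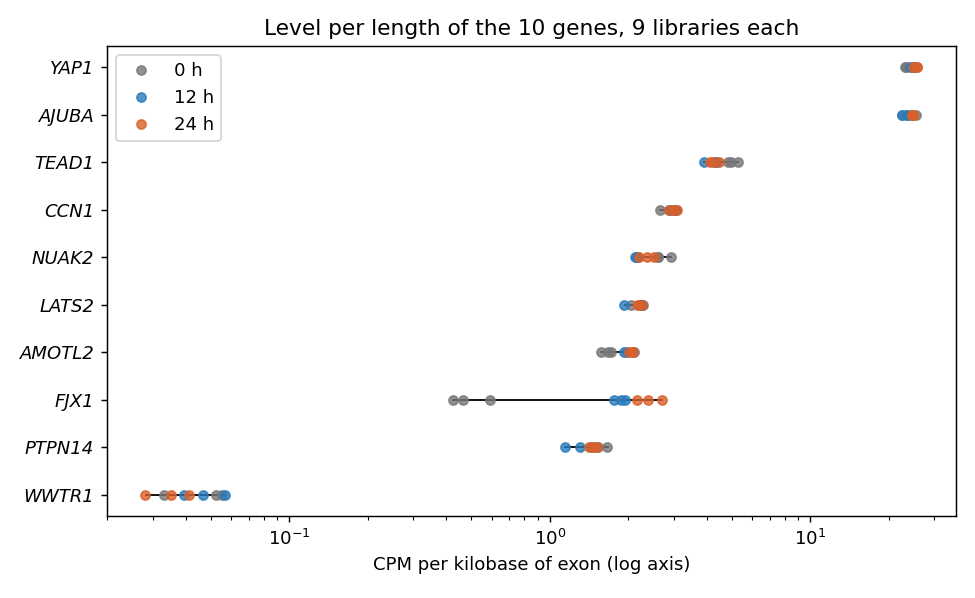
Level per length of the 10 genes in each of the 9 libraries, in CPM per kilobase of exon on a log axis, with points coloured by time and a line over the range. YAP1 and AJUBA lie together near 24 CPM per kilobase, WWTR1 lies far below the other genes, and the widest gap between 0 h and later points is that of FJX1.

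At 12 h, 5 of the 10 genes differed from 0 h, with FJX1 and AMOTL2 higher and TEAD1, PTPN14 and NUAK2 lower. At 24 h, FJX1 and AMOTL2 were still higher and TEAD1 still lower, while PTPN14 and NUAK2 did not pass the test. FJX1 was the one gene of the 10 past a 1.5-fold change, at both times. A gene passed where edgeR's quasi-likelihood test gave it an adjusted p of 0.05 or less, with the Benjamini-Hochberg adjustment made over all 19250 genes.

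At 12 h the share of all tested genes that passed was 18.7%, with 10.6% higher and 8.16% lower, against 5 of 10 here, 2 higher and 3 lower. Past 1.5-fold, the count was 1 of 10 against 2.37% of all genes. The ranges of the replicates did not overlap for 5 of the 10, against 32.8% of all genes. At 24 h, 21.1% of all genes passed, 11.6% higher and 9.48% lower, against 3 of the 10 genes, 2 higher and 1 lower. Past 1.5-fold, 1 of the 10 stood against 3.31%, and the ranges did not overlap for 4 of the 10, against 33.5%. In the test of any difference among the 3 times, 5 of the 10 passed, against 25.1% of all genes. The 10 genes, and the lists compared further on, were chosen with earlier results of these data known. Their shares beside those of all genes are therefore a description and not a test.

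The median log2 fold change of the 10 genes was -0.01 at 12 h and 0.02 at 24 h, beside medians of -0.01 and -0.01 over all genes tested. The 12 h and 24 h comparisons share their 0 h libraries. Compared directly with 12 h, none of the 10 genes passed at 24 h by edgeR or by DESeq2, against 6.08% of all genes, and 3 of the 10 had an unadjusted p below 0.05. Those 3 were FJX1, AJUBA and PTPN14. The ranges of the 12 h and 24 h libraries did not overlap for FJX1, AJUBA and NUAK2, 3 of the 10, against 24.4% of all genes.

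**Figure D2:**
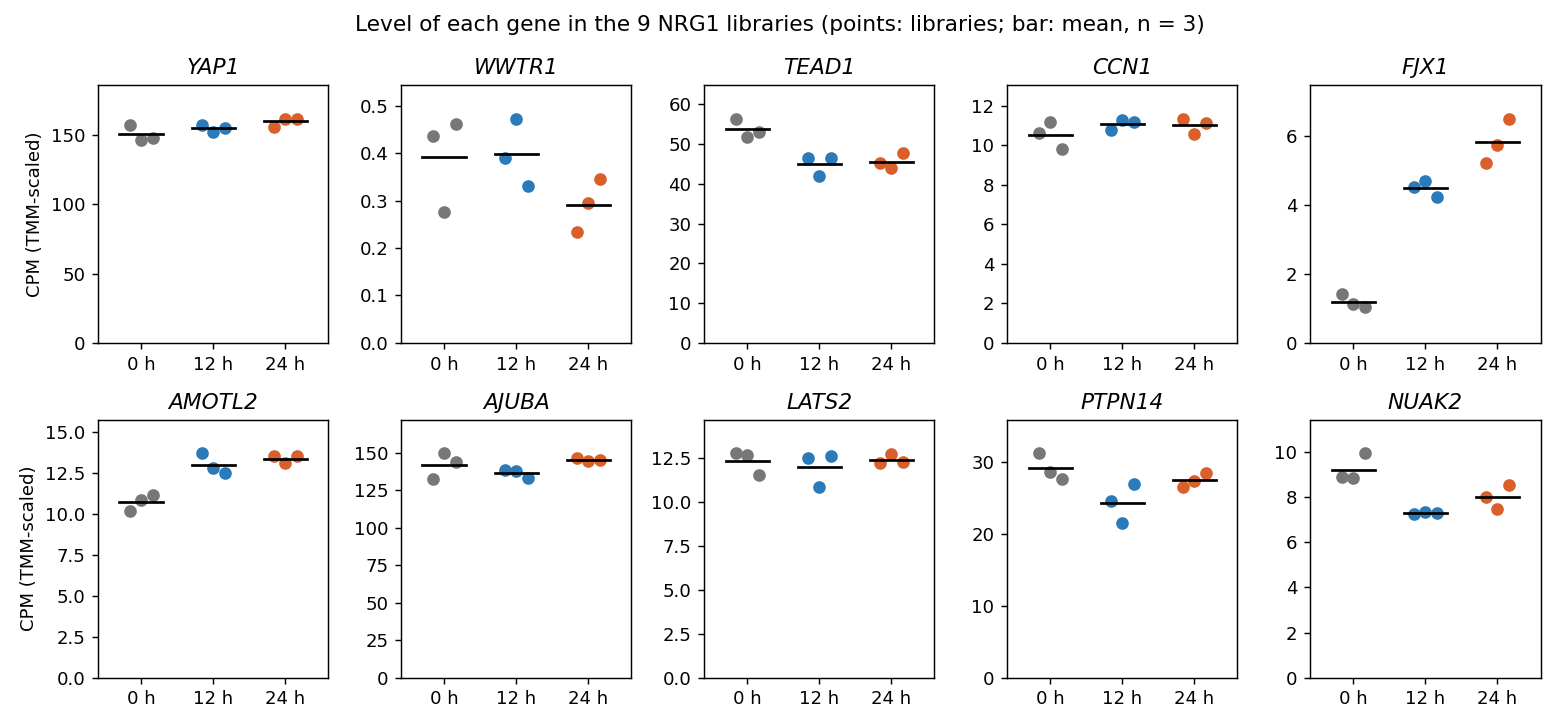
CPM of each of the 10 genes in the 9 libraries at 0, 12 and 24 h, with points for libraries and bars for means (n = 3). All axes start at 0. The 12 h and 24 h points of FJX1 and AMOTL2 lie above all of their 0 h points, and those of TEAD1 and NUAK2 lie below.

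YAP1 (ENSG00000137693.14, chr11:102110447-102233424, plus strand) encodes the coactivator itself. Its level was 157.7, 146.3 and 147.8 CPM at 0 h, 157.4, 152.1 and 155.4 at 12 h, and 156.1, 162.0 and 161.7 at 24 h. The times overlapped, with 0 h replicate 1 among the higher libraries and the other two 0 h libraries the lowest of all 9. The log2 fold change was 0.04 at 12 h (95% interval -0.03 to 0.11, edgeR adjusted p = 0.469) and 0.09 at 24 h (0.02 to 0.16, adjusted p = 0.0692). Without 0 h replicate 1, the 24 h value was 0.125 and passed, at an adjusted p of 0.0072. A gene on the other strand, RP11-732A21.3, lies across part of YAP1 and had 1.49% as many reads.

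WWTR1 (ENSG00000018408.15, chr3:149517235-149736714, minus strand), which encodes TAZ, was close to the limit of detection. It had 27, 16 and 27 reads at 0 h, 21, 25 and 16 at 12 h, and 11, 16 and 18 at 24 h. Per length, YAP1 exceeded WWTR1 by a mean of 535-fold at 0 h, 528-fold at 12 h and 743-fold at 24 h, with a range over libraries from 423 to 882. The log2 fold change of WWTR1 was 0.02 at 12 h (95% interval -0.76 to 0.81, edgeR adjusted p = 0.978) and -0.42 at 24 h (-1.23 to 0.39, adjusted p = 0.531). A difference within those intervals was not detectable at this depth.

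TEAD1 (ENSG00000187079.20, chr11:12674421-12944737, plus strand), a DNA-binding partner of YAP, was lower at both times. Its level was 56.4, 51.8 and 53.0 CPM at 0 h, 46.6, 41.9 and 46.5 at 12 h, and 45.2, 43.99 and 47.7 at 24 h. Every 0 h library was above every later one, and the 12 h and 24 h libraries overlapped. Relative to 0 h, the log2 change was -0.26 at 12 h (SE 0.046, edgeR adjusted p = 7.28e-05) and -0.24 at 24 h (SE 0.046, adjusted p = 1.81e-04). Between 12 and 24 h it was 0.02 (95% interval -0.08 to 0.12, adjusted p = 0.88).

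The relatives of TEAD1 moved in different directions. TEAD4, which binds the same motif, was at 10.1, 11.8 and 11.3 CPM at 0 h, 17.6, 17.1 and 17.0 at 12 h, and 19.9, 17.4 and 16.8 at 24 h. Every later library was above every 0 h library. Its log2 fold change was 0.64 at 12 h (SE 0.071, edgeR adjusted p = 1.32e-08) and 0.71 at 24 h (SE 0.071, adjusted p = 9.83e-10), past 1.5-fold at both times. Without 0 h replicate 1 it passed the test at 12 h with a log2 value of 0.58, just under 1.5-fold. TEAD3 rose by a log2 value of 0.17 at 12 h (adjusted p = 0.0426), a call that was lost in 8 of 19 alternatives, and its value at 24 h was 0.10 (adjusted p = 0.274). TEAD2 fell by 0.29 on the log2 scale at 24 h (adjusted p = 0.0143), a call lost without 0 h replicate 1 or without 24 h replicate 2. TEAD2 overlaps CD37 on the other strand, which had 43.9% as many reads and log2 values of -0.59 and -0.47, so the counts of TEAD2 are uncertain.

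Summed per length, the 4 TEAD genes stood at 19.6 to 19.9 CPM per kilobase at 0 h, 21.7 to 22.9 at 12 h and from 21.2 to 22.6 at 24 h. The share of TEAD1 in that sum was 25.4% ± 0.938 (SD, n = 3) at 0 h, 19.0% ± 1.06 at 12 h and 19.7% ± 1.08 at 24 h. That of TEAD4 went from 24.6% ± 2.15 to 34.2% ± 0.263 and 36.4% ± 2.11. At 0 h the shares of TEAD1 and TEAD4 were alike within their SDs, and at 12 and 24 h TEAD4 had the larger share in every library. TEAD3 held 29.4%, 29.4% and 28.6%, and TEAD2 20.5%, 17.5% and 15.3%. These shares depend on the exon length given to each gene by the annotation.

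**Figure D3:**
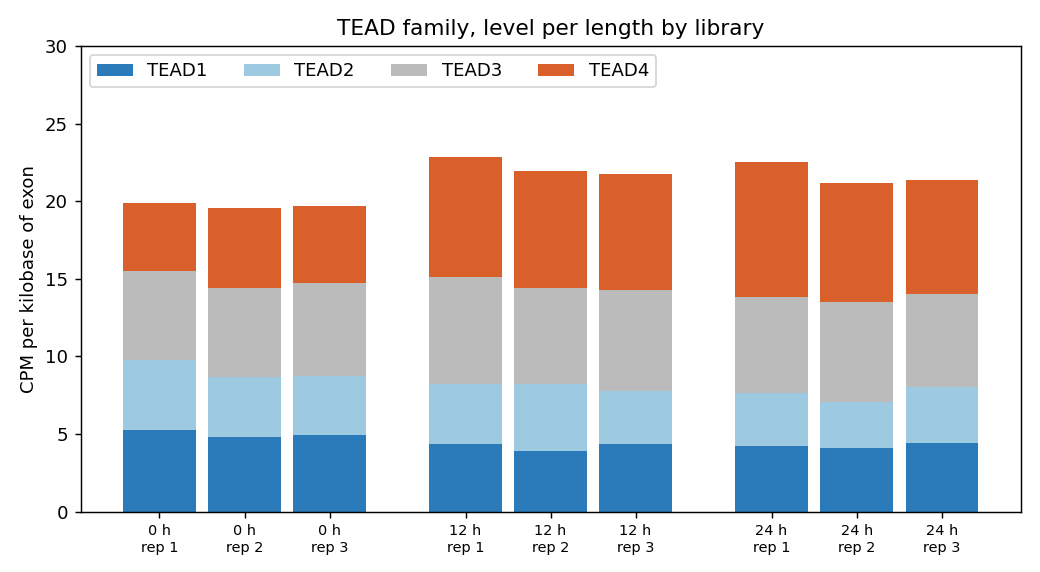
Level per length of TEAD1 to TEAD4 in each library, in CPM per kilobase of exon, stacked by gene. The TEAD4 block is taller and the TEAD1 block shorter in all 6 libraries at 12 and 24 h than at 0 h, and the sum is between 19.6 and 22.9 in all 9.

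A list of 10 genes, made from general knowledge, held YAP1, WWTR1, TEAD1 to TEAD4 and VGLL1 to VGLL4, and 7 of them were tested. It shares 3 genes, YAP1, WWTR1 and TEAD1, with the 10 chosen here. At 12 h, TEAD3, TEAD4 and VGLL4, a cofactor that competes with YAP for TEAD, were higher and TEAD1 lower. At 24 h, TEAD4 was higher and TEAD1 and TEAD2 lower. These are 57.1% and 42.9% of the 7, beside 18.7% and 21.1% of all genes. The median log2 fold change of the list was 0.04 at 12 h and 0.08 at 24 h, beside -0.01 and -0.01 over all genes.

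CCN1 (ENSG00000142871.18, chr1:85580761-85584589, plus strand), a secreted matrix protein and one of the most used YAP targets, did not pass at either time. Its level was 10.6, 11.2 and 9.83 CPM at 0 h, 10.8, 11.3 and 11.2 at 12 h, and 11.4, 10.6 and 11.1 at 24 h. The 3 times overlapped. On the log2 scale the change was 0.07 at 12 h (95% interval -0.08 to 0.22, edgeR adjusted p = 0.576) and 0.06 at 24 h (-0.09 to 0.21, adjusted p = 0.631). CCN2, its relative and the other classic target, had 10 reads in all 9 libraries together and 0 in the 3 libraries at 0 h, which allows up to 0.0168 CPM there. ANKRD1, a further classic target, had 2 reads in all.

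FJX1 (ENSG00000179431.7, chr11:35618460-35620865, plus strand), the human counterpart of four-jointed, which in flies is a Golgi kinase acting on Fat and Dachsous cadherins, rose most of the 10 genes. Its level was 1.42, 1.12 and 1.03 CPM at 0 h, 4.503, 4.67 and 4.23 at 12 h, and 5.20, 5.72 and 6.49 at 24 h. These are 60 to 88 reads at 0 h, 205 to 247 at 12 h and from 244 to 338 at 24 h. No library of one time overlapped those of another. FJX1 was 3.75-fold higher at 12 h (log2 1.91, SE 0.14, edgeR adjusted p = 1.37e-12) and 4.86-fold higher at 24 h (log2 2.28, SE 0.14, adjusted p = 3.48e-15).

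Between 12 and 24 h the log2 fold change of FJX1 was 0.38 (95% interval 0.13 to 0.62, adjusted p = 0.0593). It passed in 3 of 19 alternatives: with only the 6 libraries compared, without 0 h replicate 1 and without 24 h replicate 1. The promoter of FJX1 printed above, with 72.3% G and C, was among those without the TEAD motif. FJX1 overlaps no other gene in the table.

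Of 7 genes of the Fat and Dachsous group, FJX1 included, 4 were tested. Besides FJX1, DCHS1, a large cadherin that is itself a partner of Fat, was higher at 24 h. DCHS1 was low, at 0.742 to 0.856 CPM at 0 h, 0.945 to 1.03 at 12 h and from 1.34 to 1.67 at 24 h, with 533 reads in all. Its log2 fold change was 0.26 at 12 h (edgeR adjusted p = 0.51) and 0.92 at 24 h (SE 0.22, adjusted p = 0.0022).

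AMOTL2 (ENSG00000114019.15, chr3:134355347-134375479, minus strand), an angiomotin family protein that binds YAP at cell junctions, was higher at both times. Its level was 10.2, 10.9 and 11.1 CPM at 0 h, 13.7, 12.8 and 12.5 at 12 h, and 13.5, 13.1 and 13.5 at 24 h. Every later library was above every 0 h library, and the 12 h and 24 h libraries overlapped. edgeR gave a log2 fold change of 0.28 at 12 h (SE 0.070, edgeR adjusted p = 0.00355) and 0.32 at 24 h (SE 0.070, adjusted p = 7.93e-04). The promoter with the TEAD motif is that of the second start, and counts per gene do not separate the starts.

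The other angiomotins went the other way. AMOT was at 21.8 to 24.5 CPM at 0 h, 18.6 to 19.6 at 12 h and from 17.5 to 17.9 at 24 h. Its log2 fold changes were -0.27 (edgeR adjusted p = 7.62e-04) and -0.37 (adjusted p = 7.22e-06). AMOTL1 was scarce, with 315 reads in all, and stood at 1.31, 0.983 and 1.11 CPM at 0 h, 0.389, 0.341 and 0.558 at 12 h, and 0.256, 0.349 and 0.288 at 24 h. Its log2 fold changes were -1.41 (SE 0.30, adjusted p = 5.68e-04) and -1.92 (SE 0.31, adjusted p = 1.27e-05), past 1.5-fold at both times. Per length, AMOTL2 made up 37.2% ± 2.43 (SD, n = 3) of the 3 angiomotins at 0 h, 46.8% ± 0.89 at 12 h and 49.4% ± 0.181 at 24 h.

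AJUBA (ENSG00000129474.16, chr14:22971177-22982551, minus strand), which can hold LATS kinases at junctions, did not pass in any comparison. Its level was 132.2, 149.5 and 143.8 CPM at 0 h, 138.1, 138.0 and 133.0 at 12 h, and 146.6, 144.2 and 145.2 at 24 h. The 0 h libraries spread across the levels of both later times, while every 24 h library was above every 12 h library. The log2 fold change was -0.06 at 12 h (95% interval -0.13 to 0.02, edgeR adjusted p = 0.328), 0.04 at 24 h (-0.04 to 0.11, adjusted p = 0.574) and 0.09 between 12 and 24 h (0.02 to 0.17, adjusted p = 0.152). Without 0 h replicate 1, the lowest of its group, the 12 h value was -0.10 and passed, at an adjusted p of 0.0433.

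LATS2 (ENSG00000150457.9, chr13:20973036-21061586, minus strand), the kinase that is also a target, did not pass in any comparison either. Its level was 12.8, 12.7 and 11.5 CPM at 0 h, 12.6, 10.9 and 12.6 at 12 h, and 12.3, 12.7 and 12.3 at 24 h. All times overlapped. Relative to 0 h, the log2 change was -0.04 at 12 h (95% interval -0.19 to 0.11, edgeR adjusted p = 0.775) and 0.01 at 24 h (-0.14 to 0.16, adjusted p = 0.957). Its relative LATS1, at 53.0 to 59.4 CPM, did not pass either, at log2 values of -0.06 (adjusted p = 0.382) and -0.04 (adjusted p = 0.53).

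PTPN14 (ENSG00000152104.12, chr1:214348700-214552449, minus strand), a phosphatase that binds YAP and restrains it, was lower at 12 h. Its level was 31.2, 28.6 and 27.7 CPM at 0 h, 24.6, 21.5 and 26.9 at 12 h, and 26.6, 27.4 and 28.5 at 24 h. Every 12 h library was below every 0 h library, and the 24 h libraries overlapped both. On the log2 scale the change was -0.26 at 12 h (SE 0.062, edgeR adjusted p = 0.00272) and -0.09 at 24 h (95% interval -0.21 to 0.04, adjusted p = 0.378). The call at 12 h was closest to the threshold without 12 h replicate 2, the lowest library, at -0.18 and an adjusted p of 0.04999. Between 12 and 24 h the value was 0.18 (adjusted p = 0.101), which passed in 2 of 19 alternatives. At -200 its promoter holds the TEAD motif.

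NUAK2 (ENSG00000163545.11, chr1:205302063-205321745, minus strand), an AMPK-related kinase that acts on actomyosin and on LATS, was likewise lower at 12 h. Its level was 8.87, 8.83 and 9.94 CPM at 0 h, 7.23, 7.32 and 7.31 at 12 h, and 7.99, 7.49 and 8.53 at 24 h. No time overlapped another, with 12 h the lowest and 24 h between the others. edgeR gave a log2 fold change of -0.34 at 12 h (SE 0.085, edgeR adjusted p = 0.00345), -0.20 at 24 h (95% interval -0.37 to -0.03, adjusted p = 0.0832) and 0.13 between 12 and 24 h (-0.04 to 0.31, adjusted p = 0.434). Its promoter is the one of those printed with 2 TEAD motifs. NUAK1, its relative, was at 14.8 to 15.9 CPM at 0 h and 17.7 to 18.9 at 12 h, with a log2 fold change of 0.24 (adjusted p = 0.00397). At 24 h it was at 16.9 to 17.5 CPM and did not pass, at 0.15 (adjusted p = 0.0848).

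**Figure D4:**
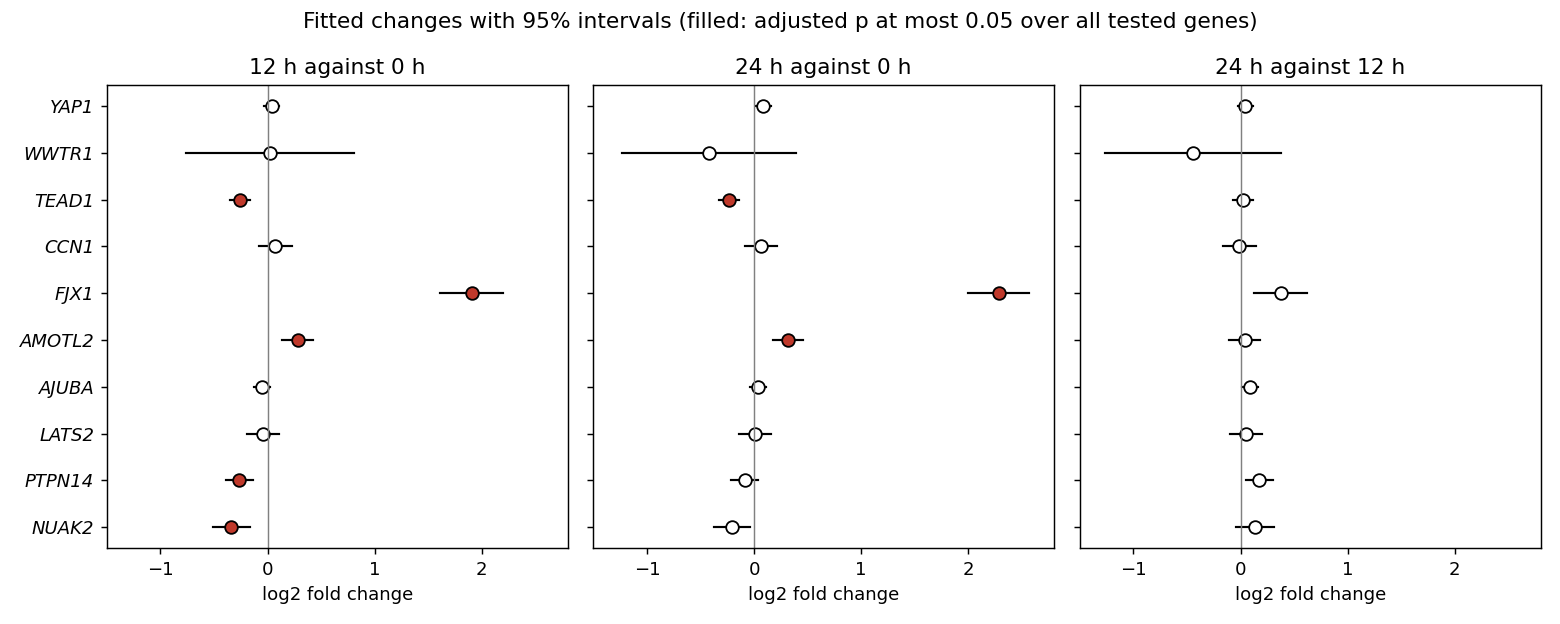
Fitted log2 fold change of the 10 genes in the 3 comparisons, with 95% intervals and filled points for an adjusted p of at most 0.05. FJX1 stands apart at 1.91 and 2.28, the other filled points lie between -0.34 and 0.32, and the panel for 24 h against 12 h has none.

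The upstream part of the pathway was measured with 28 kinases and scaffolds, 5 of them among the 10 genes, and all 28 were tested. At 12 h, 4 were higher and 7 lower, or 39.3% of the list beside 18.7% of all genes. At 24 h, 4 were higher and 4 lower, or 28.6% beside 21.1%. The median log2 fold change was -0.05 at 12 h and 0.01 at 24 h. STK3 and STK4, which encode the core kinases MST2 and MST1, were both higher, by log2 values of 0.17 (edgeR adjusted p = 0.00222) and 0.13 (adjusted p = 0.0246) at 12 h and 0.37 (adjusted p = 4.87e-09) and 0.16 (adjusted p = 0.00499) at 24 h. The 12 h call of STK4 was lost in 5 of 19 alternatives. TAOK3 and MAP4K4, of kinase families that act on the core kinases or on LATS, were lower, with log2 values of -0.15 and -0.15 at 12 h and -0.33 and -0.21 at 24 h. The 12 h call of TAOK3 was lost without 12 h replicate 2, at an adjusted p of 0.0619. WWC3, a scaffold of the KIBRA family, was higher at 24 h, at 0.22 (adjusted p = 6.28e-04), and did not pass at 12 h, at -0.05 (adjusted p = 0.532).

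A further 16 genes of a list of 22 YAP and TAZ targets, written from general knowledge, are not among the 10. Only 9 of these 16 had enough reads to test, and the other 7 had at most 49 reads each in all 9 libraries: CCN2, ANKRD1, AXL, F3, FOXF2, NT5E and TGFB2. Of the 9, CRIM1 and DOCK5 were higher and GADD45A lower at 12 h. At 24 h, CRIM1, DOCK5 and ASAP1 were higher and none lower, and at each time these are 33.3% of the 9, beside 18.7% and 21.1% of all genes. CRIM1, a membrane protein that binds growth factors, stood at 6.18 to 7.39 CPM at 0 h, 8.84 to 10.6 at 12 h and from 10.1 to 10.8 at 24 h, with log2 fold changes of 0.49 (edgeR adjusted p = 7.45e-05) and 0.58 (adjusted p = 4.17e-06). DOCK5, an exchange factor for Rac, had values of 0.26 (adjusted p = 8.08e-04) and 0.41 (adjusted p = 4.13e-07). The call of GADD45A at 12 h, at -0.20 (adjusted p = 0.00896), was lost in 3 of 19 alternatives, and its value at 24 h was -0.13 (adjusted p = 0.0828).

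Over the whole list of 22, which shares 6 of its genes with the 10 chosen here, 15 were tested. At 12 h, 4 were higher and 3 lower (46.7%, beside 18.7% of all genes), and at 24 h 5 were higher and 0 lower (33.3%, beside 21.1%). The median log2 fold change was 0.05 at 12 h and 0.06 at 24 h.

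A longer list of 58 genes often used as a conserved YAP signature, also written from general knowledge, shares AMOTL2 and CCN1 with the 10. Of the 58, 44 were tested. At 12 h, 9 were higher and 5 lower (31.8% of the list, beside 18.7% of all genes), with a median log2 fold change of 0.05. At 24 h, 9 were higher and 16 lower (56.8%, beside 21.1% of all genes, of which 11.6% higher and 9.48% lower), with a median of -0.11. Here and for the other lists, the share of all genes was not matched for level. Genes with more reads can pass at smaller changes. ETV5, a transcription factor that ERK signalling raises, went furthest, with 0.325 to 0.621 CPM at 0 h, 11.2 to 13.4 at 12 h and from 15.2 to 16.8 at 24 h. Its log2 fold changes were 4.78 (SE 0.14, edgeR adjusted p = 1.90e-24) and 5.18 (SE 0.14, adjusted p = 3.29e-26). TNS1, an actin-binding protein of focal adhesions, was lower past 1.5-fold at both times, at -0.81 (adjusted p = 0.00553) and -0.81 (adjusted p = 0.0049). Both calls of TNS1 were lost without 0 h replicate 3, its highest library.

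The cell cycle genes of that list were mostly lower at 24 h. Of the 11, 2 were higher and 2 lower at 12 h, beside 10.6% and 8.16% of all genes, and the median was 0.03. The higher call of STMN1 (0.10, edgeR adjusted p = 0.0482) held in only 7 of 19 alternatives, and the lower call of CDKN2C in 18. At 24 h, 1 was higher and 9 were lower, beside 11.6% and 9.48% of all genes, and the median was -0.27. The lower calls of CENPF and TOP2A at 24 h held in 14 and 17 of 19 alternatives, and the higher call of DUT in 18. HMMR, a spindle protein, was at 64.6 to 69.0 CPM at 0 h, 69.2 to 70.7 at 12 h and from 49.5 to 53.6 at 24 h. The 33 tested genes of the list outside the cell cycle had 7 higher and 3 lower at 12 h, and 8 higher and 7 lower at 24 h, with medians of 0.07 and 0.03. These are 30.3% and 45.5% of the 33, beside the same 18.7% and 21.1% of all genes.

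**Figure D5:**
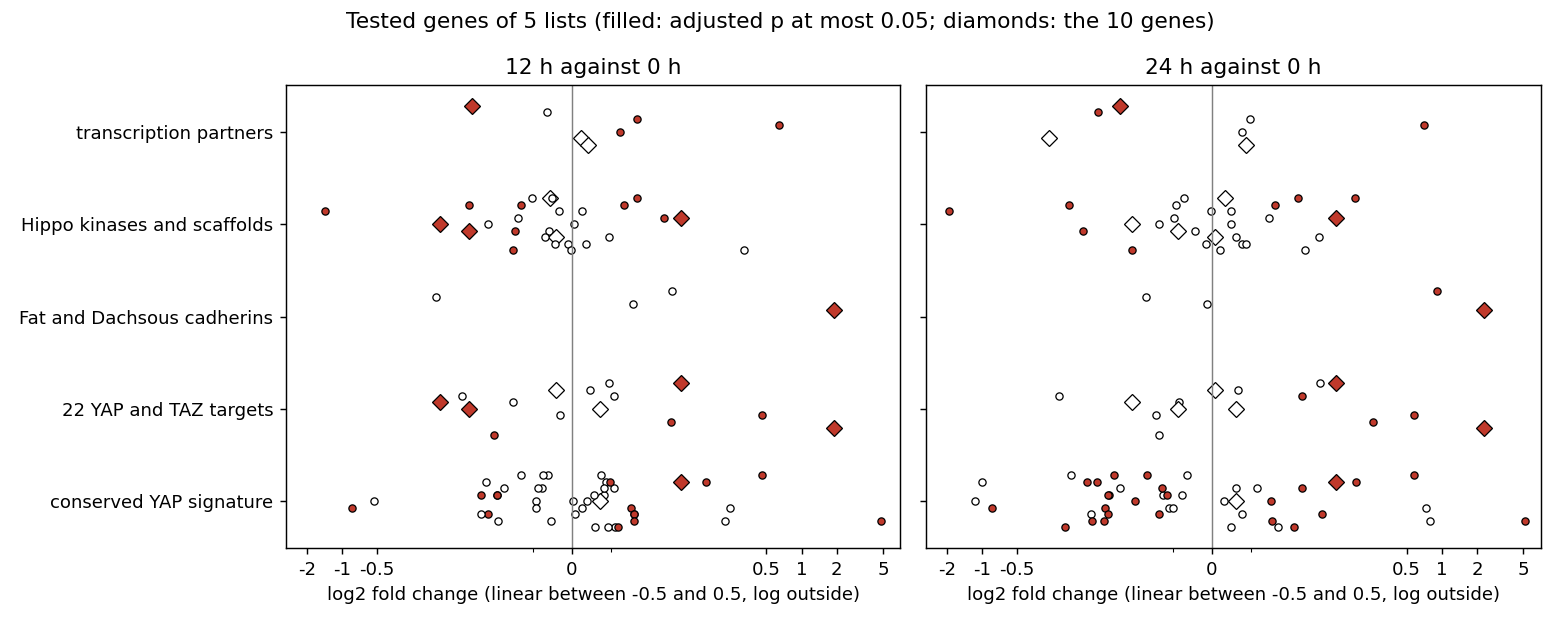
Fitted log2 fold changes at 12 and 24 h against 0 h of the tested genes of 5 pathway lists, on an axis that is linear between -0.5 and 0.5 and logarithmic outside. Filled points had an adjusted p of at most 0.05 and diamonds are the 10 genes. Filled points lie on both sides of 0 in most lists, and in the conserved YAP signature those at 24 h are mostly below 0.

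For each of the 5 genes that passed, the 3 genes most like it were sought among 12613 genes by Pearson's r of log2 CPM over the 9 libraries. The libraries share 3 times and their depth, so these values are given as a description. Pearson's r leaves out the size of a change. FJX1 was most like TFRC (the transferrin receptor, r = 0.997), NUDT4 (0.995) and PRKAA1 (a catalytic subunit of AMPK, 0.995). Their log2 fold changes at 24 h were 0.26, 0.92 and 0.48, against 2.28 for FJX1. AMOTL2 was most like S100A11, COPS7A and PPRC1, with r of 0.977 to 0.982. TEAD1 was most like LAMA3 (a laminin chain, 0.984), RP11-283I3.6 (0.983) and MAST4 (0.981). PTPN14 had HECTD4, NFAT5 and LRP1, with r of 0.968 to 0.977, and NUAK2 had CLCN3, LYSMD3 and ZNF248, with r of 0.957 to 0.971. At 12 h the log2 fold changes of CLCN3, LYSMD3 and ZNF248 were -0.14, -0.22 and -0.08, against -0.34 for NUAK2.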

How the data were processed

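Per the study's methods, the authors trimmed adapters with Cutadapt, aligned read pairs to GRCh38.p13 with STAR and counted them per gene of GENCODE v38 with featureCounts. Whether counting used strand, and how multi-mapping reads were treated, is not given in the sources used here. The authors deposited raw counts as whole numbers, with 1 column per library. Its 14 empty columns were not used. The methods leave out 1 LNCaP library at time 0 that failed quality control, without naming its treatment. The study's legends give n = 3 for the sequencing after NRG1, and fewer for part of that after another protein, asporin. All 3 libraries at 0 h were therefore kept, and fits without each were added.

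Genes were kept with filterByExpr, libraries were scaled with TMM, and counts of all 9 libraries were fitted with edgeR 4.0.16 in R 4.3.3 (robust quasi-likelihood test, no covariate, Benjamini-Hochberg over 19250 genes). DESeq2 1.42.0 was an alternative, and the scripts were tested on simulated data. The limit given for a gene at 0 reads is 3 counts over the group and covers counting error only. Level per length used the exon union of GENCODE v44. Coordinates of genes come from the count table.

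The 10 genes and the lists were chosen with earlier results of these data known. Named genes were the 10, their closest relatives, every list gene past an adjusted p of 0.05 and 1.5-fold, and the 3 genes most like each of those that passed (average log2 CPM of at least 1). Any further gene in the text was picked with its values in view.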

Additional observations from a re-analysis of the deposited data

Results flagged for a closer look

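None of the 10 genes passed when 24 h was tested directly against 12 h (edgeR, adjusted over all 19250 genes), with FJX1 closest at an adjusted p of 0.0593. Of the 79 other tested genes of the pathway lists, 12 passed, beside 6.08% of all genes, and each is given here by its log2 fold change from 12 to 24 h. Among the Hippo kinases and scaffolds, STK3 (0.20, adjusted p = 0.00112) and WWC3 (0.27, adjusted p = 2.44e-04) were higher and TAOK3 was lower (-0.18, adjusted p = 0.00345). Of the conserved YAP signature, ETV5 was higher (0.40, adjusted p = 0.00208). The other 8 were lower. They include the mitosis and microtubule genes HMMR (-0.44, adjusted p = 1.06e-09), STMN1 (-0.39, adjusted p = 9.17e-10), BIRC5 (-0.35, adjusted p = 2.67e-07), CDC20 (-0.30, adjusted p = 1.15e-04), ECT2 (-0.26, adjusted p = 4.43e-05) and TOP2A (-0.14, adjusted p = 0.0123). GGH (-0.20, adjusted p = 0.0122) and NDRG1 (-0.17, adjusted p = 0.00335) complete them. The call of TOP2A was lost when replicate 1 or replicate 3 of 12 h, or replicate 1 of 24 h, was left out, and that of GGH when replicate 3 of either time was.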

How the results depend on the processing

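Each of the 30 comparisons of the 10 genes was recomputed under 19 alternatives, 10 of the whole data and 9 with a library left out, which gave 570 values. No call was lost or reversed, and 8 values passed that had not: AJUBA at 12 h, YAP1 at 24 h (in 2 alternatives), FJX1 (in 3) and PTPN14 (in 2) between 12 and 24 h. GC and length offsets and thinning to the smallest total were chosen after seeing the data. With the 1.5-fold threshold of the study added, 457, 638 and 87 of all genes passed at 12 h, at 24 h and between them, and of the 10 genes 1, 1 and 0. Between 12 and 24 h, 1 of the 10 passed with all genes with a count (PTPN14) and with only the 6 libraries compared (FJX1). With a library left out, 5 to 6, 3 to 4 and 0 to 1 of the 10 passed, and 2745 to 3700, 3297 to 4020 and 685 to 1449 of all genes. The low values of the last range came without 12 h replicate 2 (685), 24 h replicate 3 (757) and 12 h replicate 1 (776). For the 79 other tested genes of the pathway lists, 4366 of 4483 values kept their side of the threshold, 72 lost the call, 45 gained it and none reversed. Deviations of libraries with the same replicate number correlated at r of -0.12 to 0.15, against -0.21 to 0.23 for other numbers, so the numbers were not taken to pair them. With the replicate number as a block, 5, 3 and 0 of the 10 genes and 3672, 4081 and 1262 of all genes passed. Other scaling moved the median of all genes by at most 0.0121 (log2). Depth limits WWTR1, with 177 reads in all, and the 7 targets that were not tested. The causes of these differences were not tested.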
